A study of Mus musculus with 6 samples.

Results

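The genes described here are 36 genes of macrophage identity and function, which encode lineage transcription factors, growth factor and Fc receptors, complement C1q, scavenger receptors, lysosomal proteins and leukocyte surface proteins. They were taken from the deposited table by gene symbol, and 35 of the 36 had a row, 1 each, among 22206 tested transcript clusters. Cd68 had no row under its symbol and is not analysed here. Gene expression was measured in total RNA of Müllerian ducts, the embryonic tubes that form the oviducts, uterus and upper vagina, on Affymetrix arrays with 1 array per embryo at E17.5. Mutant embryos had the genotype Lats1f/f,Lats2f/f,Amhr2cre/+ (3 arrays). Control embryos had the genotype Lats1f/f,Lats2f/f (3 arrays). All 6 therefore carried floxed alleles of the Hippo pathway kinases LATS1 and LATS2, and the controls lacked Cre. The Cre recombinase is in the Amhr2 locus, which is active in duct mesenchyme, so the mutants also differ from the controls in an Amhr2 allele. The labels call the samples biological replicates.

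Macrophages are phagocytes that settle in nearly every organ before birth, where they engulf dying cells and debris and serve the growth and reshaping of the tissue. Their development depends on the transcription factor PU.1 and on the receptor CSF1R, which binds the growth factors CSF1 and IL-34, often made by stromal cells. They sense their surroundings through Fc receptors, complement and pattern recognition receptors, clear material through scavenger receptors and break it down in lysosomes.

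Signals are log2 values, and a difference of 1 is a 2-fold change. The median of 23 antigenomic probes, which match no mouse sequence, gave each array a background level between 5.35 and 5.88, and array medians lay between 6.87 and 6.95. Lats1 had a log2 difference of -0.78 and Lats2 of 0.22 between mutant and control ducts, and neither passed the test (limma adjusted p = 0.0958 and 0.684). Lats1 did pass without rows under the median signal (limma adjusted p = 0.0453) and with a trended and robust prior (0.0359). It passed in no fit with 1 array left out. Amhr2 fell by 3.73 (limma adjusted p = 0.000112). Of 10 duct markers, listed after the data had been seen, all 10 were above background on every array and 1, Amhr2, passed the test. Estimates were below 0 for 8 of the 10 and above 0 for 2, against 11433 of all 22206 rows below 0. The median of the 10 was -0.61. Their mean level was 9.83 to 10.55 on mutant arrays and 10.75 to 11.04 on control arrays, without overlap. Control 3 stood apart on the second principal component (19.6% of the variance), and its mean level of 9 urothelial and smooth muscle markers was 11.9. That level was 7.26 to 7.50 on the mutant arrays and 6.42 on the lowest control array.

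Macrophage genes were higher in mutant ducts. Of the 35 genes, 16 rose, none fell and 19 did not pass the test (limma, Benjamini-Hochberg adjusted p under 0.05), which is 45.7% against 2.59% of all 22206 rows that rose, 0.666% that fell and 3.26% that did either. The median log2 difference was 1.02 for the 35 genes and -0.01 for all rows. The estimate was above 0 for 30 genes and below 0 for 5. The 3 mutant arrays lay wholly above the 3 control arrays for 24 of the 35 genes and wholly below them for 1, against 10.9% and 10.2% of all rows, or 21.1% in either direction. Without control 3, 14 genes rose, none fell and the median was 0.96. The genes were chosen with earlier results of these data known, so the shares describe the list and do not test it. In whole tissue, more macrophages and more RNA of these genes per cell cannot be told apart.

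The mean log2 signal over the 35 genes was 9.0 to 9.31 on the mutant arrays and 8.25 to 8.34 on the control arrays. Of the 35 genes, 31 were above background on every array, and Itgb2 was below it on all 6. Mutant 3 had the highest mutant signal for 21 genes, and mutants 1 and 2 had it for 7 each. Mutant 1 had the lowest mutant signal for 20 genes. Among the control arrays, control 1 was highest for 15 genes, control 2 for 6 and control 3 for 14. The mean over the 35 genes of the deviation from each gene's own mean was 0.29, 0.39 and 0.60 in mutants 1, 2 and 3 and -0.45, -0.46 and -0.37 in controls 1, 2 and 3. The groups therefore did not overlap in this summary, and the gap between them was wider than the spread within either.

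**Figure D1:**
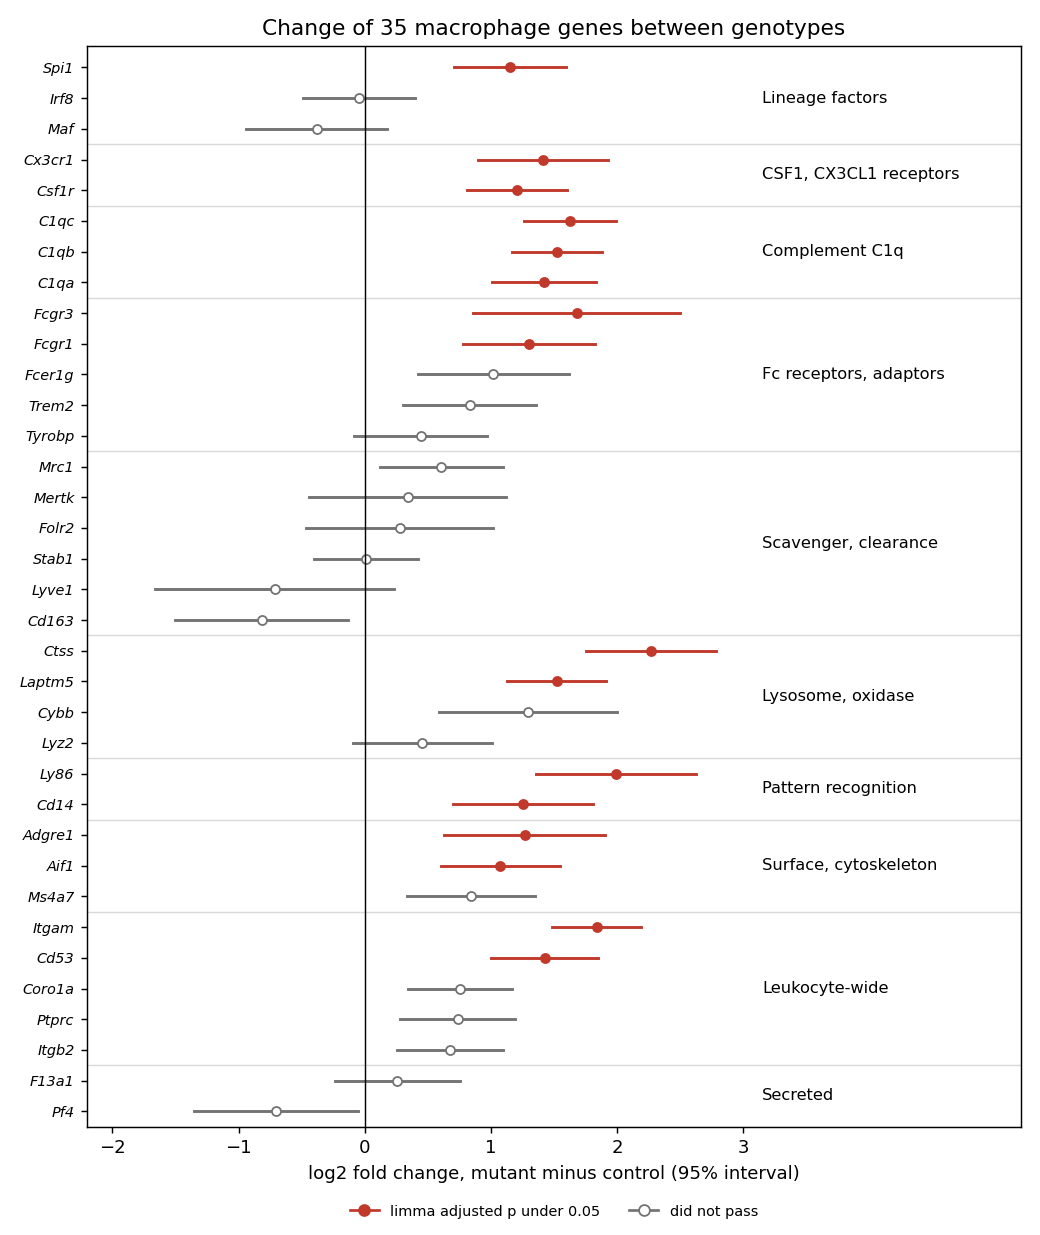
Log2 difference, mutant minus control, of each of the 35 macrophage genes on the horizontal axis, with its 95% interval, ordered by role. Filled points mark the 16 genes that rose (limma adjusted p under 0.05) and open points the 19 that did not pass, among them all 6 scavenger and clearance receptors and both secreted products.

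Of the 3 lineage transcription factors, 1 rose. Spi1 encodes PU.1, the master regulator of macrophage and other myeloid fates. Its log2 signal was 14.25, 14.32 and 14.08 in mutant ducts and 13.16, 12.71 and 13.31 in control ducts, a difference of 1.15 ± 0.20 (SE, n = 3 each, limma adjusted p = 0.0129). Every mutant array was above every control array, and the call was lost without mutant 1 (adjusted p = 0.0586) or mutant 2 (0.0527). Irf8, a partner of PU.1 in monocytes, microglia and dendritic cells, had 5.68, 5.44 and 5.77 in mutant ducts and 6.0, 5.60 and 5.42 in control ducts. These values overlapped and lay near background, above it on 1 mutant and 2 control arrays, and the difference was -0.05 (95% interval -0.49 to 0.40). Maf encodes c-MAF, a factor of resident macrophages that other cells of the tissue also express, and it had 8.89, 9.45 and 9.81 in mutant ducts and 9.72, 9.55 and 10.02 in control ducts. Its difference was -0.38 (95% interval -0.94 to 0.17), the groups overlapped, and the difference was -0.14 without mutant 1 and -0.59 without mutant 3.

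PU.1 binds purine-rich DNA with the core GAGGAAGT, so this motif was looked for on both strands of the members' promoter windows, 250 bases before to 50 after a RefSeq gene start (GRCm38.p6). A window was at hand for 27 of the 36 genes, 34 windows in all. The motif stood in 5 of the 34 (14.7%) and in 3.20% of all 32851 windows in the table. Its shorter form AGGAAGT, which it contains, stood in 35.3% of the members' windows and 9.35% of all windows, and GAGGAA, which it also contains, in 58.8% and 28.3%. The overlapping ETS forms GGAAGTG and GGAGGAAG stood in 23.5% and 11.8% of the members' windows, against 11% and 5.97% of all. The MAF core TGCTGA stood in 32.4% and 19.5%, and the interferon response core TTTCNCTTT in 5.88% and 3.07%. All 5 windows with GAGGAAGT are shown, because they hold the full core of the lineage factor that rose. Capitals mark the motif, read as GAGGAAGT or as its reverse complement ACTTCCTC.
C1qc, chr4:136892865-136893164, minus strand: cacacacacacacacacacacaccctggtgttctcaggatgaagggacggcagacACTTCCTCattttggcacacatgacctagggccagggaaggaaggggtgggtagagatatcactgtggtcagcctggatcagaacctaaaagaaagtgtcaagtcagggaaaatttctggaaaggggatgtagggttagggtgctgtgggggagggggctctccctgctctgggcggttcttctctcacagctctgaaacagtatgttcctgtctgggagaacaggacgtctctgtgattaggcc
Cd53, chr3:106790100-106790399, minus strand: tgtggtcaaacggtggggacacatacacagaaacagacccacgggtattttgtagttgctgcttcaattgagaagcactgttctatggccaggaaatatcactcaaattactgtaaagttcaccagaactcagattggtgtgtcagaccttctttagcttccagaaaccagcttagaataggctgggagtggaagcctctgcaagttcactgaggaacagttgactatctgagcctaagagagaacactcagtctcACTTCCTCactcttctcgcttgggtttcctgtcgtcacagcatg
Ctss, chr3:95526536-95526835, plus strand: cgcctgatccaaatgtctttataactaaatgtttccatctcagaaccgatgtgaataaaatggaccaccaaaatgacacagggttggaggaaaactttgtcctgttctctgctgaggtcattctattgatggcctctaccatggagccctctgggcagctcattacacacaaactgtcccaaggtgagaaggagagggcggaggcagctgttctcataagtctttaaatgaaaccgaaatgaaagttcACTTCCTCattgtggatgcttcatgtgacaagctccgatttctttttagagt
F13a1, chr13:37049164-37049463, minus strand: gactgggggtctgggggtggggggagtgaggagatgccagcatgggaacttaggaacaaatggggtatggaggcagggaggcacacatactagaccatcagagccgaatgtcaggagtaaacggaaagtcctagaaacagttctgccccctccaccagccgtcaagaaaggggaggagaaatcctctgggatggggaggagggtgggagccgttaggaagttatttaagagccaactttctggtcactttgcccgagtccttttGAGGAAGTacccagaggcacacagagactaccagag
Pf4, chr5:90772185-90772484, plus strand: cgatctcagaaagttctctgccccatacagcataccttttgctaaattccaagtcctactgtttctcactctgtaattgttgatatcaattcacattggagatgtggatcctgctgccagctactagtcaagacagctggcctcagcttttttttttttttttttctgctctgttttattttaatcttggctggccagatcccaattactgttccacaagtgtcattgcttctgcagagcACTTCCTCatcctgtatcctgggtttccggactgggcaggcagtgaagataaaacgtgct
The motif begins 195 bases before the gene start in C1qc, 10 before it in Pf4 and 2 before it in Ctss, and 6 bases after the first base in Cd53 and 14 after it in F13a1. Of these 5 genes, C1qc, Cd53 and Ctss rose and F13a1 and Pf4 did not pass the test, while 11 of the 26 measured genes with a window rose. A match of letters is a description and not a measured binding site.

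Both growth factor and chemokine receptors rose, and both calls held with any 1 array left out. Csf1r encodes the receptor through which CSF1 and IL-34 keep macrophages alive. Its log2 signal was 10.91, 10.88 and 11.11 in mutant ducts and 9.998, 9.69 and 9.59 in control ducts, a difference of 1.21 ± 0.18 (SE, n = 3 each, limma adjusted p = 0.00617). Cx3cr1, the receptor of the membrane-bound chemokine fractalkine and a marker of early fetal macrophages and microglia, had 7.43, 7.66 and 8.18 in mutant ducts and 6.56, 6.07 and 6.40 in control ducts. It rose by 1.42 ± 0.23 (SE, limma adjusted p = 0.0106). For both genes the lowest mutant array was above the highest control array.

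The 3 chains of complement C1q, which recognises antibody complexes and dying cells, rose together. C1qc had a log2 signal of 10.16, 10.09 and 10.13 in mutant ducts and 8.69, 8.40 and 8.41 in control ducts, a difference of 1.63 ± 0.16 (SE, n = 3 each, limma adjusted p = 0.000831). C1qb had 10.12, 10.16 and 10.30 in mutant ducts and 8.78, 8.66 and 8.57 in control ducts, a difference of 1.52 ± 0.16 (SE, adjusted p = 0.00105). C1qa had 9.58, 9.12 and 9.16 in mutant ducts and 7.72, 7.93 and 7.95 in control ducts, a difference of 1.42 ± 0.18 (SE, adjusted p = 0.00327). Within each genotype the arrays lay close together, and the gap between genotypes was wider than either spread. C1qb, C1qc and C1qa follow each other on chromosome 4 in the RefSeq gene table. All 3 calls held with any 1 array left out.

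Fc receptors bind the constant part of antibodies and signal through adaptors with an activating (ITAM) motif. Of the 5 genes of this group 2 rose, and the estimates of all 5 were above 0 with a median of 1.02. Fcgr3, an activating IgG receptor of low affinity, had 11.38, 11.27 and 12.83 in mutant ducts and 10.03, 10.20 and 10.21 in control ducts, a difference of 1.68 ± 0.36 (SE, n = 3 each, limma adjusted p = 0.0405). Mutant 3 stood well above the other mutant arrays, and the difference without it was 1.18. The Fcgr3 call was lost without control 1, 2 or 3 (adjusted p = 0.143, 0.122 and 0.0742) or mutant 1 (0.0585). Fcgr1, the IgG receptor of high affinity, had 9.0, 8.70 and 8.88 in mutant ducts and 8.06, 7.25 and 7.35 in control ducts and rose by 1.30 ± 0.23 (SE, adjusted p = 0.0162). Its groups did not overlap, and it no longer passed when control 2 (0.0677), mutant 1 (0.0719) or mutant 3 (0.0593) was left out.

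The adaptors themselves did not pass the test. Fcer1g, the common Fc receptor gamma chain, had 11.81, 12.70 and 12.28 in mutant ducts and 10.95, 11.66 and 11.12 in control ducts. No mutant array fell within the control range, yet the groups spread widely, and the difference was 1.02 (95% interval 0.42 to 1.62, limma adjusted p = 0.0848). Tyrobp, the adaptor known as DAP12, had 7.47, 7.56 and 7.91 in mutant ducts and 7.61, 7.23 and 6.77 in control ducts. Control 1 was above mutants 1 and 2, and the difference was 0.44 (95% interval -0.08 to 0.97), or 0.23 without control 3. Trem2, a lipid-sensing receptor that signals through it, had 6.51, 5.72 and 6.51 in mutant ducts and 5.56, 5.32 and 5.36 in control ducts, above background on 2 mutant arrays and 1 control array. Its difference was 0.83 (adjusted p = 0.109), and it passed without mutant 2 (1.09, adjusted p = 0.0232).

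**Figure D2:**
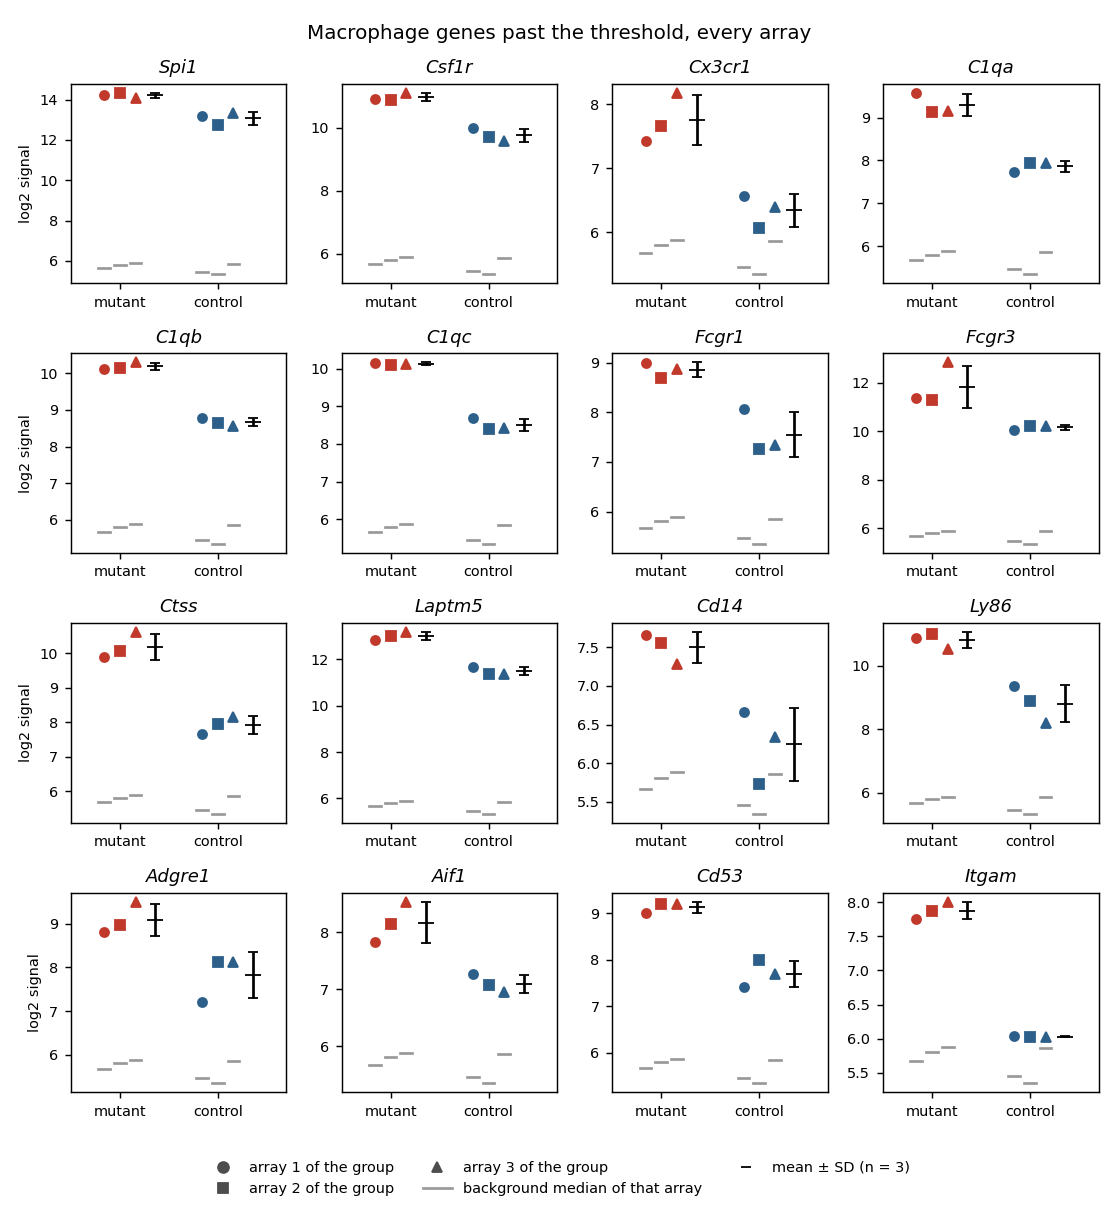
Log2 signal of the 16 macrophage genes that rose, 1 panel per gene, with mutant arrays in red left of control arrays in blue, the mean ± SD of each group (n = 3) and a grey bar for the background median of each array. In all 16 panels the 3 mutant arrays lie above the 3 control arrays, from Spi1 at 14.08 to 14.32 in mutant ducts down to Cd14 at 7.28 to 7.66.

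Lysosomal and oxidase genes included the largest difference of the 35. Ctss encodes cathepsin S, a protease that trims antigens and the invariant chain. Its log2 signal was 9.88, 10.06 and 10.61 in mutant ducts and 7.65, 7.94 and 8.16 in control ducts, a difference of 2.27 ± 0.23 (SE, n = 3 each, limma adjusted p = 0.00087), or 4.82-fold. Laptm5, a lysosomal membrane protein of blood cells, had 12.82, 13.02 and 13.15 in mutant ducts and 11.67, 11.38 and 11.38 in control ducts, a difference of 1.52 ± 0.17 (SE, adjusted p = 0.00156). Both genes left a wide gap between the groups, and both calls held with any 1 array left out. Cybb, the catalytic subunit of the phagocyte NADPH oxidase, had 9.85, 9.67 and 10.55 in mutant ducts and 8.61, 9.34 and 8.23 in control ducts. Control 2 came close to the mutant arrays, the difference was 1.29 (95% interval 0.59 to 2.00, adjusted p = 0.0644), and without control 2 it was 1.6 (adjusted p = 0.0357). Lyz2, the lysozyme of myeloid cells, overlapped between the groups, with 10.34, 9.99 and 10.26 in mutant ducts and 9.19, 9.97 and 10.07 in control ducts (difference 0.46, 95% interval -0.10 to 1.01, and 0.18 without control 1).

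Both pattern recognition genes rose. Ly86, whose product pairs with the Toll-like receptor homologue CD180, had a log2 signal of 10.89, 11.01 and 10.53 in mutant ducts and 9.35, 8.89 and 8.20 in control ducts. It rose by 1.99 ± 0.28 (SE, n = 3 each, limma adjusted p = 0.00519), or 3.99-fold, and the call held with any 1 array left out. In the RefSeq gene table Ly86 lies next to F13a1 on chromosome 13, whose difference was 0.26. Cd14, the lipopolysaccharide co-receptor, had 7.66, 7.56 and 7.28 in mutant ducts and 6.67, 5.73 and 6.34 in control ducts, a difference of 1.25 ± 0.25 (SE, adjusted p = 0.0252). Its groups did not overlap, but it did not pass when control 2 (0.0603), mutant 1 (0.101), mutant 2 (0.0885) or mutant 3 (0.0506) was left out.

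Of 3 macrophage surface and cytoskeletal genes 2 rose, and neither call was firm. Adgre1 encodes the adhesion receptor most often used to identify mouse macrophages. It had 8.80, 8.96 and 9.49 in mutant ducts and 7.21, 8.11 and 8.12 in control ducts, a difference of 1.27 ± 0.28 (SE, n = 3 each, limma adjusted p = 0.0467). Aif1, an actin-bundling protein also called IBA1, had 7.82, 8.15 and 8.53 in mutant ducts and 7.27, 7.07 and 6.95 in control ducts, a difference of 1.07 ± 0.21 (SE, adjusted p = 0.0250). Neither gene overlapped between the groups. Adgre1 passed on all 6 arrays and with control 3 left out, but not with control 1 (0.119), control 2 (0.0762), mutant 1 (0.0784), mutant 2 (0.106) or mutant 3 (0.143) left out. Aif1 passed on all 6 arrays and with mutant 1 left out, but not with control 1 (0.0616), control 2 (0.0876), control 3 (0.0687), mutant 2 (0.0779) or mutant 3 (0.0717) left out. Ms4a7, a tetraspanning membrane protein of macrophages, had 9.64, 9.76 and 9.95 in mutant ducts and 9.03, 9.30 and 8.48 in control ducts (difference 0.85, adjusted p = 0.0917).

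Of 5 genes that macrophages share with other leukocytes, 2 rose. All 5 were higher in every mutant array than in any control array, against 10.9% of all rows. Itgam, the alpha chain of the myeloid integrin CR3, had 7.75, 7.87 and 8.0 in mutant ducts and 6.04, 6.02 and 6.03 in control ducts. Its arrays agreed closely within each genotype, and it rose by 1.84 ± 0.16 (SE, n = 3 each, limma adjusted p = 0.000353), or 3.58-fold. Cd53, a leukocyte tetraspanin, had 9.0, 9.19 and 9.20 in mutant ducts and 7.42, 7.99 and 7.69 in control ducts, a difference of 1.43 ± 0.19 (SE, adjusted p = 0.00357). Both calls held with any 1 array left out. Ptprc, the leukocyte common antigen CD45, had 8.48, 8.30 and 8.81 in mutant ducts and 8.06, 7.58 and 7.73 in control ducts (difference 0.74, adjusted p = 0.101). Coro1a, a leukocyte actin regulator, had 7.15, 7.28 and 7.42 in mutant ducts and 6.44, 6.81 and 6.33 in control ducts (difference 0.76, adjusted p = 0.0656). Itgb2, the beta chain that pairs with Itgam, was below background on all 6 arrays, and its difference was 0.68 (adjusted p = 0.104).

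None of the 6 scavenger and clearance receptors passed the test, and their median difference was 0.14, or 0.29 without control 3. These receptors take up sugars, haemoglobin complexes, hyaluronan or dying cells and are typical of macrophages long settled in a tissue, although endothelial cells make some of them. Mrc1, the mannose receptor, had 12.52, 12.88 and 13.24 in mutant ducts and 12.05, 12.34 and 12.43 in control ducts. Its mutant arrays lay above the control arrays by little, with a difference of 0.61 (95% interval 0.12 to 1.09, limma adjusted p = 0.208). Mertk, a receptor for dying cells, had 8.03, 8.27 and 9.42 in mutant ducts and 8.47, 7.82 and 8.40 in control ducts (difference 0.34, 95% interval -0.44 to 1.12). Its higher mutant mean came from mutant 3, and the difference was -0.082 without that array, 0.14 without control 2 and 0.61 without mutant 1. Folr2, a folate receptor, had 6.44, 6.98 and 6.46 in mutant ducts and 6.26, 5.69 and 7.10 in control ducts (difference 0.28, 95% interval -0.46 to 1.02), and the difference was -0.051 without control 2, 0.10 without mutant 2 and 0.65 without control 3. Stab1, a scavenger receptor of macrophages and sinusoidal endothelium, had 6.86, 6.84 and 6.87 in mutant ducts and 6.79, 6.61 and 7.15 in control ducts (difference 0.01, 95% interval -0.40 to 0.42). Both overlapped between the groups.

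The remaining 2 receptors had estimates below 0. Lyve1, a hyaluronan receptor of perivascular macrophages and of lymphatic endothelium, had 10.72, 11.70 and 11.31 in mutant ducts and 11.11, 11.84 and 12.93 in control ducts. Control 3 was the highest array, and the difference was -0.71 (95% interval -1.66 to 0.23), or -0.23 without control 3, -0.45 without mutant 1 and -1.14 without control 1. Cd163, the receptor of haemoglobin-haptoglobin complexes, had 4.96, 4.67 and 4.94 in mutant ducts, below background on all 3 arrays, and 5.48, 5.11 and 6.43 in control ducts. It was the 1 gene of the 35 whose mutant arrays all lay below the control arrays, and its difference of -0.82 (95% interval -1.50 to -0.13, limma adjusted p = 0.236) became -0.44 without control 3. Control 3 had the highest mean deviation over these 6 receptors, 0.54. The part of that array's tissue content in these values was not tested.

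Neither secreted product passed the test. F13a1, the clotting factor XIII subunit made by many tissue macrophages, had 9.72, 9.85 and 9.86 in mutant ducts and 9.15, 9.52 and 9.99 in control ducts (difference 0.26, 95% interval -0.24 to 0.75), and the difference was 0.056 without control 1 and 0.48 without control 3. Pf4, platelet factor 4, which megakaryocytes and some fetal macrophages make, had 7.11, 7.77 and 7.64 in mutant ducts and 7.58, 8.48 and 8.57 in control ducts (difference -0.70, 95% interval -1.35 to -0.05, limma adjusted p = 0.284). Both genes overlapped between the groups.

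**Figure D3:**
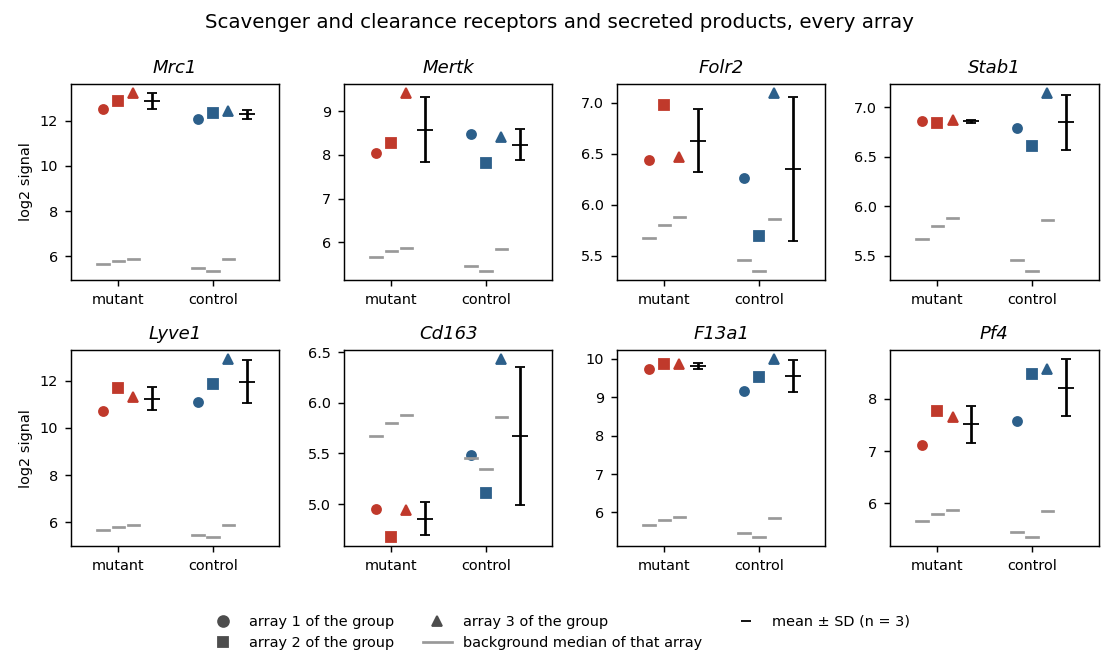
Log2 signal of the 6 scavenger and clearance receptors and the 2 secreted products, 1 panel per gene, with mutant arrays in red left of control arrays in blue, the mean ± SD of each group (n = 3) and a grey bar for the background median of each array. The groups overlap in all panels except Mrc1, where mutant arrays are higher, and Cd163, where they are lower and below background.

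Other genes of the macrophage programme were counted from companion lists, which were also chosen with earlier results of these data known. Of 24 further macrophage genes 9 rose and none fell, with a median difference of 1.09, and their mean level was 7.93 to 8.37 on mutant arrays and 7.09 to 7.16 on control arrays. C3ar1, the receptor of complement fragment C3a, had 9.38, 9.49 and 9.78 in mutant ducts and 7.63, 7.47 and 7.82 in control ducts, a difference of 1.91 ± 0.18 (SE, limma adjusted p = 0.000644). P2ry6, a nucleotide receptor of phagocytes (1.61, adjusted p = 0.00276), Msr1, a scavenger receptor (1.36, 0.00532), and Lgmn, a lysosomal protease (1.35, 0.00673), rose as well. These 4 calls held with any 1 array left out. Of 12 genes of resident macrophage subsets 1 rose, 7 were below background on every array and the median was 0.03. The 1 was Gas6, a bridge between dying cells and MERTK that stromal cells also make (0.93, adjusted p = 0.0109, or 0.0511 without control 1).

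Some genes that act downstream of the receptors rose, and most of the ITAM signalling genes did not pass the test. Of 11 ITAM signalling genes 3 rose and none fell, with a median of 0.59. Estimates were above 0 for 8 and below 0 for 3, among them Syk (-0.20, limma adjusted p = 0.721), named after its value was seen. The genes that rose were the phospholipase gene Plcg2 and the inhibitory phosphatase genes Inpp5d and Ptpn6, and Ptpn6 was below background on all arrays. Plcg2 was below background on all control arrays and at least 1.35-fold higher in mutant ducts, and its call (limma adjusted p = 0.0194) did not hold when control 2 (0.0756), mutant 1 (0.0822) or mutant 3 (0.0600) was left out. The Inpp5d call (0.90, adjusted p = 0.0216) was lost in every leave-out except that of control 3, with adjusted p up to 0.0965, and the Ptpn6 call (0.85, 0.0253) was lost in all 6, up to 0.0901. Of 4 further subunits of the phagocyte NADPH oxidase, partners of Cybb, 3 rose, with a median of 1.14. Ncf4 had 8.88, 8.52 and 8.64 in mutant ducts and 6.82, 7.47 and 6.68 in control ducts (difference 1.69, adjusted p = 0.00398), and its call held with any 1 array left out. The Rac2 call (1.30, 0.0305) did not hold when control 1 (0.0959), control 2 (0.120) or mutant 2 (0.0678) was left out, and the Ncf1 call (0.98, 0.0252) in every leave-out except that of control 3, up to 0.106.

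Of 8 further transcription factors of myeloid cells 1 rose, Runx1, a factor of blood cell formation that other tissues also use. Its log2 signal was 10.60, 10.82 and 10.27 in mutant ducts and 8.5, 7.90 and 7.42 in control ducts, a difference of 2.62 ± 0.27 (SE, limma adjusted p = 0.00108). Of 5 growth factors of macrophages and granulocytes 1 rose. Csf1, the ligand of Csf1r, had 14.20, 14.14 and 14.42 in mutant ducts and 11.95, 11.59 and 12.13 in control ducts, a difference of 2.37 ± 0.19 (SE, adjusted p = 0.000259), or 5.15-fold. Il34, the other ligand, had 5.64, 6.13 and 6.09 in mutant ducts and 5.49, 5.90 and 4.89 in control ducts, above background on 2 arrays of each group (difference 0.53, adjusted p = 0.396). The Runx1 and Csf1 calls held with any 1 array left out.

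Of 14 chemokines and chemokine receptors that guide myeloid cells 3 rose and none fell, with a median of 0.11, and 7 were below background on every array. Ccl12, a monocyte-attracting chemokine of the mouse, had 10.39, 9.39 and 10.41 in mutant ducts and 6.39, 6.22 and 6.54 in control ducts, a difference of 3.68 ± 0.27 (SE, limma adjusted p = 0.000197), or 12.8-fold. Ccr1, a receptor of inflammatory chemokines, rose by 1.23 (adjusted p = 0.0106), and both calls held with any 1 array left out. The call of Cxcl10, an interferon-induced chemokine (1.08, 0.0358), was lost in every leave-out except that of control 3, up to 0.120.

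Genes of macrophage activation, lipid handling and antigen presentation were read from 4 further lists. Of 9 genes of inflammatory activation 3 rose, with a median of 0.09 and 3 below background on every array. Il6 had 5.99, 5.19 and 5.80 in mutant ducts, above background on 1 array, and 4.10, 3.98 and 3.72 in control ducts, below it on all 3 (limma adjusted p = 0.00375). With most of the Il6 signals below background, no fold is given for it. Il1a was below background on all 6 arrays (0.91, adjusted p = 0.0142), with the call lost without control 2 (0.0572) or mutant 1 (0.0658). The Cd40 call (1.08, 0.0406) was lost in all 6 leave-outs, up to 0.135. Of 8 genes of alternative activation 1 rose, Il4ra, the interleukin-4 receptor alpha chain (1.67, 0.00276), with a median of 0.03. Of 8 lipid handling genes 2 rose, with a median of 0.47. The call of Gpnmb (0.0177), below background in all control arrays and at least 1.27-fold higher in mutant ducts, was lost without control 2 (0.0756) or mutant 1 (0.0593). The call of Fabp5 (1.14, 0.0422) was lost in every leave-out except that of control 2, up to 0.138. None of 6 genes of antigen presentation by MHC class II passed the test (median 0.32, 2 below background on every array).

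Markers of other cells were read beside these results. Of 12 further genes shared by leukocytes 5 rose and none fell (median 0.67), and their mean level was 6.91 to 7.16 on mutant arrays and 6.22 to 6.24 on control arrays. None of 9 T cell, 6 B cell, 6 natural killer cell and 9 dendritic cell markers passed the test, with medians of -0.02, 0.07, 0.08 and 0.02. Of these, 5 T cell, 6 B cell, 5 natural killer cell and 6 dendritic cell markers were below background on every array. Their mean levels were 4.74 to 5.08 on mutant and 4.87 to 4.92 on control arrays for T cells, 4.07 to 4.10 and 3.82 to 4.09 for B cells, 3.95 to 4.09 and 4.02 to 4.13 for natural killer cells, and 4.44 to 4.88 and 4.58 to 4.69 for dendritic cells.

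Granulocyte and mast cell markers held calls in both directions, and most of them did not pass the test. Estimates were below 0 for 18 of 22 neutrophil and 6 of 8 mast cell markers (median of the mast cell markers -0.45), against 11433 of all 22206 rows. Of 22 neutrophil markers 3 fell and 1 rose (median -0.38), with mean levels of 5.45 to 5.70 on mutant arrays and 5.53 to 6.92 on control arrays, and control 2 highest. Retnlg, a resistin-like gene of neutrophils, had 4.86, 4.91 and 5.14 in mutant ducts, below background, and 7.74, 8.35 and 7.59 in control ducts, at least 4.31-fold lower in mutant ducts (limma adjusted p = 0.000205). Mmp9, a protease of neutrophils and macrophages, was below background in all control arrays and at least 1.87-fold higher in mutant ducts (0.00733). The Stfa2 call (-2.34, 0.0301) and the Stfa2l1 call (-2.08, 0.0478) were each lost without control 1 or any of the 3 mutant arrays, up to 0.109 and 0.145, and with a trended and robust prior (0.0623 and 0.0938). Of 8 mast cell markers, with mean levels of 7.89 to 8.28 on mutant arrays and 8.41 to 8.64 on control arrays, 1 fell and 1 rose. Cpa3, the mast cell carboxypeptidase, had 12.63, 12.77 and 12.25 in mutant ducts and 13.77, 14.17 and 13.72 in control ducts, a difference of -1.34 ± 0.20 (SE, adjusted p = 0.00743) that held with any 1 array left out. Ms4a2 (1.20, 0.0106) was below background on all arrays and lost its call without mutant 1 (0.0541).

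Of 5 monocyte markers 1 rose, and their median was -0.17. Plac8 had 10.13, 9.19 and 10.29 in mutant ducts and 7.17, 7.89 and 7.47 in control ducts, a difference of 2.36 ± 0.30 (SE, limma adjusted p = 0.00316). Ly6c2, the surface antigen of classical monocytes, named after its value was seen, had 5.81, 6.64 and 6.11 in mutant ducts and 7.14, 7.84 and 7.10 in control ducts (difference -1.17, adjusted p = 0.0514). Of 5 microglia markers Gpr34 rose (1.30, adjusted p = 0.0106, median of the 5 genes 0.37), and none of 7 osteoclast genes passed (0.26). None of 5 platelet or 5 erythroid markers passed (medians -0.01 and 0.00), nor any of 6 lymphatic endothelial markers (-0.12), of the other cell type that makes Lyve1. Lymphatic estimates were below 0 for 3 genes and above 0 for 3. They ran from -0.75 for Ccl21a to 1.05 for Pdpn, both named after their values were seen. The part of lymphatic endothelium in the Lyve1 values was not tested. Of 11 endothelial markers Kdr rose (1.10, 0.00624) and Sox17 fell (-0.97, 0.0445, lost in every leave-out except that of control 2, up to 0.162), with a median of -0.23. Of 6 mesothelial markers Msln rose (1.48, 0.00664, median -0.12), and none of the 9 urothelial and smooth muscle markers passed (-1.21), although 1 rose and their median was 0.40 without control 3.

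Early response and stress genes, which handling of tissue can induce, differed in the same direction as the macrophage genes. Of 14 such genes 5 rose and none fell, with a median of 0.77. Ier3, an early response gene, rose by 3.12 (limma adjusted p = 0.000389), Fos by 1.71 (0.00449) and the heat shock gene Hspa1a by 2.33 (0.00640), and these 3 calls held with any 1 array left out. The call of Hspa1b, another heat shock gene (2.57, 0.0163), was lost without control 1 (0.0653), control 2 (0.0697) or mutant 1 (0.0582). The mean level of the 14 genes was 9.28 to 9.36 on mutant arrays and 8.02 to 8.58 on control arrays. The part of these genes, and of the duct, leukocyte, neutrophil and mast cell markers, in the differences of the macrophage genes was not tested.

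**Figure D4:**
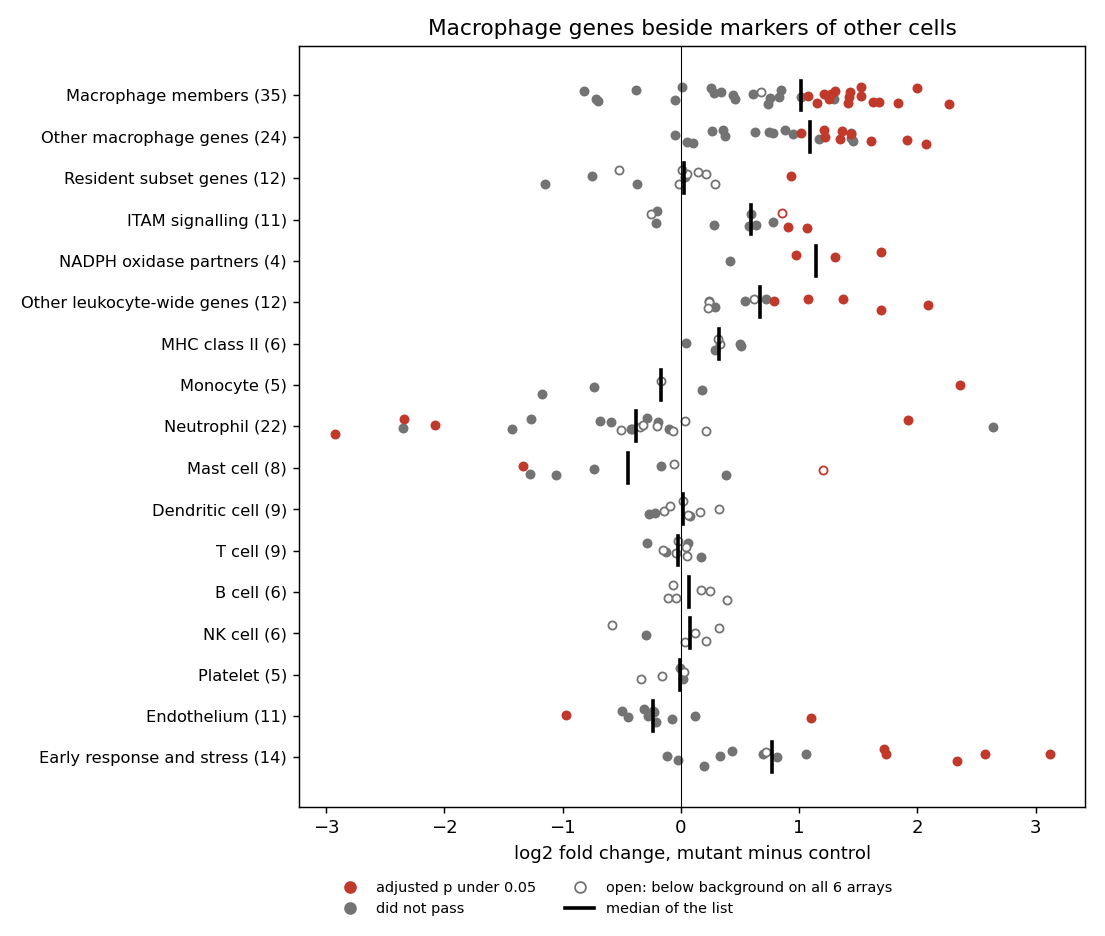
Log2 difference, mutant minus control, of each gene of the macrophage list and of 16 companion lists, with the number of measured genes in brackets, red points for genes past the threshold, open points for genes below background on all 6 arrays and a black bar for the median of the list. The macrophage genes have a median of 1.02 and further macrophage genes 1.09, against -0.38 for neutrophil, -0.45 for mast cell and -0.02 for T cell markers. Early response and stress genes have a median of 0.77 and other leukocyte-wide genes 0.67.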

How the data were processed

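Total RNA of Müllerian ducts from 6 embryos was hybridised to Affymetrix arrays. The authors deposited 1 table of log2 values with a column per array, made with Transcriptome Analysis Console 4.0 per the submitters' processing notes. How they were normalized is not stated in the labels or the file header, and no further normalization was applied. Of 28846 rows, 6640 control rows were left out, and 22206 were fitted on genotype alone (limma 3.58.1, R 4.3.3, two-sided), with Benjamini-Hochberg adjustment over all rows and a threshold of 0.05. Rows were named by the probe table of the platform (19572 rows with 1 symbol, 2634 unnamed). Where a fold is given against a group below background on all arrays, it is a bound. For that group the bound uses the higher of the probe's own signal and the background median of each array. The fit was tested on simulated data. Per-array values are given for the members, and up to 4 genes of each of 28 companion lists that passed are named, with Lats1, Lats2, Amhr2, Csf1 and Il34. Members and lists were chosen with earlier results of these data known. Alternatives were quantile normalization, a common median, filters on dim rows, a trended and robust prior, array weights, a replicate block, a threshold of 0.01, other background levels and leaving out each array. Precision is limited by 3 arrays per group. Depth does not apply to arrays. Plots used Python 3.11.15 and matplotlib 3.10.9.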

Additional observations from a re-analysis of the deposited data

How the results depend on the processing

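The count of macrophage genes that rose was 16 of 35. It stayed between 11 and 20 at the 0.05 threshold in every alternative run, with none falling. The median log2 difference of these genes stayed between 0.89 and 1.18. The highest values, 20 and 1.18, came without rows under the median signal, a filter that also removed some of the 35 genes. At a threshold of 0.01, 9 of the 35 genes rose, and 299 rows of the whole table passed, 260 higher and 39 lower in mutant ducts, against 723, 575 and 148 at 0.05. Leaving out each array in turn gave 360 to 697 rows, 305 to 565 higher and 55 to 132 lower. Rows lower in mutant ducts numbered 257 without rows under the median signal and 243 with a trended and robust prior. Without rows under the median signal Fcer1g (limma adjusted p = 0.0436), Cybb (0.0339), Ms4a7 (0.0445), Ptprc (0.0468) and Coro1a (0.0278) passed as well. Fcer1g (0.0335) and Cybb (0.0314) also passed with the trended and robust prior, and Cybb (0.0441) with array weights. No member lost its call with that prior or with the weights. Against the highest background probe of each array, 11 of the 35 genes were above background on every array, in place of 31. With each array left out in turn, the estimate changed sign for Irf8 (-0.18 to 0.12, above 0 without control 1 or mutant 2), Stab1 (-0.11 to 0.16, below 0 without control 1 or control 2), Folr2 (-0.051 to 0.65, below 0 without control 2) and Mertk (-0.082 to 0.61, below 0 without mutant 3). None of these 4 genes passed the test in any of these fits, and the cause was not tested. Samples of the 2 genotypes share only a replicate number: same-number deviations correlated at 0.0078, 0.042 and -0.0030, and only replicate 2 matched its own number best. With the replicate block 633 rows passed, 502 higher and 131 lower, and 16 of the 35 genes rose, with Aif1 lost (adjusted p = 0.0563) and Fcer1g gained (0.0260). Of the other named genes, Ptpn6 (0.0518), Ncf1 (0.0542), Cxcl10 (0.0656), Cd40 (0.0604), Fabp5 (0.0683) and Sox17 (0.0813) did not pass with the block, and it changed no other call of a named gene. Signals near or below background, such as those of Irf8, Trem2, Cd163 and Itgb2, and 3 arrays per group limit what the differences show.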
